A study of Mus musculus with 16 samples.

Results

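Old and adult Hap-I mice were compared, both by their sample labels on a western diet, in 5 old and 4 adult hearts out of 16 hearts sequenced. Hap-I mice have the C57/BL6 strain label and a transgene, haplotype I of the human angiotensin type 1 receptor gene, and the series title describes overexpression of that receptor. The other hearts came from 4 old Hap-I mice with no diet named and from 3 adult mice labelled C57 alone. All 9 hearts compared therefore share the human haplotype and the labelled diet and differ in labelled age. The labels of all 4 adult Hap-I hearts give the western diet, but the design text of the series lists this group with no diet. The groups here follow the labels, and if the design text is right, diet cannot be told apart from age. The labels give no promoter or cell type for the transgene, no age in months, no sex, no hour of collection and no batch. The design text states 3 to 5 animals in each group, and hearts are numbered here in deposit order. The genes tested were the 11415 of 30153 that reached 1 TPM in 3 or more of the 16 hearts. TPM is a transcript abundance divided by length and scaled to a fixed total, so it keeps no sequencing depth and the depth is unknown. Each level below is a scaled TPM, that is TPM divided by a median-of-ratios size factor of its library. Each fold change is a limma estimate on the scale of log2(scaled TPM + 1), which understates changes of genes at low TPM. A gene is called where its Benjamini-Hochberg adjusted p is under 0.05. The ± of a level is the SD over hearts, and that of a fold change is the standard error from limma.

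Circadian clock genes and genes of cardiac fuel use are described first among the genes called. In the clock, CLOCK and BMAL1 (the product of Arntl) bind E-boxes and switch on their own repressors, the Per and Cry genes, together with the output factors Dbp, Tef and Hlf. The outputs bind D-boxes, and REV-ERB and ROR factors act on Arntl, so repressors and outputs peak in antiphase to Arntl in most tissues, the heart included. The adult heart burns mainly fatty acids, and the nuclear receptors of the PPAR family raise genes for fatty acid use, such as Ucp3, Ehhadh, Pdk4 and Angptl4, when fatty acids are plentiful.

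Promoter sequences of RefSeq on build GRCm38.p6, from 250 bases before to 50 bases after each annotated start, were searched on both strands for motifs that clock factors bind. The stretches below show what such motifs look like in 3 listed genes, of which Per3 was called and Ciart and Cry1 were not. Of the 13 repressor and output genes listed, 11 had a promoter in the table, and 5 of these held the E-box CACGTG (Per1, Cry1, Tef, Bhlhe41 and Ciart). Over all genes with a promoter, 8.09% held it. The D-box TTATGTAA was found in 1 of the 11, Per3, and in 1.11% of all genes. Of the other listed repressors and outputs that were called, Dbp and Hlf held neither motif, and Per2 had no promoter in the table. None of the 5 genes of the positive arm with a promoter held either motif, and Arntl alone of these held a ROR element, found in 0.074% of all genes. A match is a run of letters and not a measured binding site. In the stretches printed below, all on the minus strand and read 5′ to 3′, capitals mark the motif. The Ciart stretch (chr3:95882247-95882384) holds 3 E-boxes, which begin 116, 58 and 44 bases before the start. The Cry1 stretch (chr10:85185089-85185154) holds 1 E-box, 60 bases before the start. The Per3 stretch (chr4:151044796-151044910) holds 2 D-boxes, 205 and 158 bases before the start.
Ciart: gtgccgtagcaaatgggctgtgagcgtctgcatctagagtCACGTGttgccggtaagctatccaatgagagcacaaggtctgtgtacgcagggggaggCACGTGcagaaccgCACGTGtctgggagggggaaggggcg
Cry1: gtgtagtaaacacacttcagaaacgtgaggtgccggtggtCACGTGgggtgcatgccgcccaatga
Per3: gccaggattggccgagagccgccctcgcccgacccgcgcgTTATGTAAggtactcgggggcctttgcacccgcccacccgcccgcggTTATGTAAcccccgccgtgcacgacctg

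Some properties of the libraries bear on what follows. Ventricular cardiomyocyte markers summed to 55800 to 71760 scaled TPM in old hearts and 55470 to 73580 in adult hearts, with all 18 of 18 detected. Atrial markers summed to 97.76 to 210.1 in old hearts and to 46.02 to 1192 in adult hearts, and Myl7, the atrial myosin light chain, stood at 397 and 113 in adult hearts 1 and 4. Y-linked transcripts were near 0 in old hearts 1, 2 and 3 and in adult hearts 1 and 2, at sums of at most 0.494 TPM, against at least 20.63 TPM in the other 4 hearts. The rank correlation across genes between a library's deviation and transcript length ran from -0.49 in adult heart 2 to 0.54 in old heart 1. It was positive in 3 of 5 old hearts and in 1 of 4 adult hearts. In a principal component analysis of the 9 hearts, the first component held 30.9% of the variance and mixed the groups. Its ends were old heart 1 at -24.7 and adult heart 2 at 28.6, which are also the ends of the length correlation. On the second, with 20.4%, adult hearts lay between -22.4 and -1.6, and old hearts lay higher except old heart 5 at -9.6. The third component, with 16.6%, set old heart 5 at 30.8 and adult heart 4 at -19.2 apart from the other hearts, which lay between -4.7 and 3.8. Any 2 of the 16 libraries correlated across genes at 0.956 to 0.99.

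Between old and adult hearts 273 genes were called, 191 higher and 82 lower in old hearts. This is 2.39% of the genes tested (1.67% higher and 0.718% lower). Counts of called members in the gene lists below are to be read against these shares. Of the 1363 genes tested in these lists 3.67% were called. The median log2 fold change was 0.53 among genes called higher and -0.44 among genes called lower, and 19 of the 273 changed by at least 2-fold. In 226 of the 273 the levels of the groups did not overlap, against 6.31% of all genes tested. The calls rest on spreads shared with the other groups: a model of only these 9 hearts called 5 genes (Gm4737, Pcna-ps2, Eif3j2, Nfat5 and mt-Nd3). TPM without size factors gave 22 calls, of which 19 were among the 273, and the median over all genes then moved from -0.01 to 0.11. Leaving out adult heart 1 left 28 calls and adult heart 3 left 46, whereas leaving out old heart 4 gave 572. Without adult heart 2, 4, old heart 1, 2, 3 or 5 the counts were 179, 480, 108, 250, 79 and 390. Removing each library's trend with transcript length left 140 calls, 79 higher and 61 lower, of which 102 were among the 273. A covariate for absent Y-linked transcripts left 194 calls, 190 of them among the 273, and an atrial marker covariate left 104. Of the 65 called genes named by the rule given at the end, 50 stayed called with the Y-linked covariate. Cacnb2, Gsk3b, Dmd, Celf2 and Apoo were among those that did not, at adjusted p of 0.0532 to 0.0563.

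Of the circadian clock genes listed, Per2, Per3, Dbp and Hlf rose in old hearts and Arntl fell. Of 13 repressors and outputs tested, these 4 rose and none fell, and 12 of the 13 estimates were positive. The median log2 fold change of the 13 was 0.53 against -0.01 over all genes. That median was 0.28 in the hearts with Y-linked transcripts and 0.81 in the hearts without them. In the positive arm, 1 of 6 genes, Arntl, fell and none rose. Per2 (ENSMUSG00000055866, chr1:91415982-91459324), a repressor of CLOCK and BMAL1, measured 1.23, 2.11, 2.06, 0.95 and 1.35 scaled TPM in old hearts 1 to 5 and 0.312, 0.165, 0.182 and 0.53 in adult hearts 1 to 4. Every old heart lay above every adult heart, with means of 1.54 ± 0.521 (SD, n = 5) and 0.297 ± 0.169 (SD, n = 4), a 5.19-fold difference in level. Its log2 fold change was 0.95 ± 0.14 (adjusted p = 0.00657). Dbp (ENSMUSG00000059824, chr7:45705088-45710203), a D-box activator among the outputs, measured 5.07, 10.6, 8.74, 7.44 and 8.43 in old hearts and 3.1, 3.87, 3.28 and 1.37 in adult hearts. The groups did not overlap, and the log2 fold change was 1.23 ± 0.21 (adjusted p = 0.0151). Per3, a further period gene, measured 1.69, 3.34, 4.19, 1.56 and 3.91 in old hearts and 1.53, 0.534, 1.21 and 1.22 in adult hearts. Old hearts 1 and 4 lay just above adult heart 1, and the log2 fold change was 0.85 ± 0.2 (adjusted p = 0.0396).

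Arntl (ENSMUSG00000055116, chr7:113207465-113314126) measured 1.97, 2.44, 1.46, 1.8 and 3.14 in old hearts and 6.04, 4.08, 3.37 and 4.69 in adult hearts. All old hearts lay below all adult hearts, and the log2 fold change was -0.81 ± 0.17 (adjusted p = 0.025). Hlf, an output factor related to Dbp, measured 3.56, 3.53, 3.67, 3.13 and 2.48 in old hearts and 1.87, 1.34, 2.08 and 2.6 in adult hearts. Old heart 5 fell within the adult range, and the log2 fold change was 0.53 ± 0.13 (adjusted p = 0.0452). Of the repressors that were not called, Ciart stood at 0.63 on the log2 scale and Per1 at 1.02, each at an adjusted p of 0.071. Nr1d1, which encodes REV-ERB alpha, stood at 0.53 (adjusted p = 0.058) and Bhlhe40 at 0.58 (adjusted p = 0.0614). Cry1 was the 1 repressor with a negative estimate, -0.14 (adjusted p = 0.488). These 5 uncalled genes were picked after their values were seen. The calls of Per2 and Dbp held without any 1 of the 9 hearts. Those of Per3, Hlf and Arntl ended without some hearts (old hearts 1, 2, 3 or 5, adult hearts 1, 2 or 3), at adjusted p of 0.0538 to 0.13, and those of Per3 and Hlf also after the length correction, at 0.0838 and 0.0997. In a fit of only the 9 hearts Per2 had an adjusted p of 0.0838 and Dbp of 0.0994. The labels give no hour of collection, so a difference in hour between groups cannot be told apart from age.

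**Figure D1:**
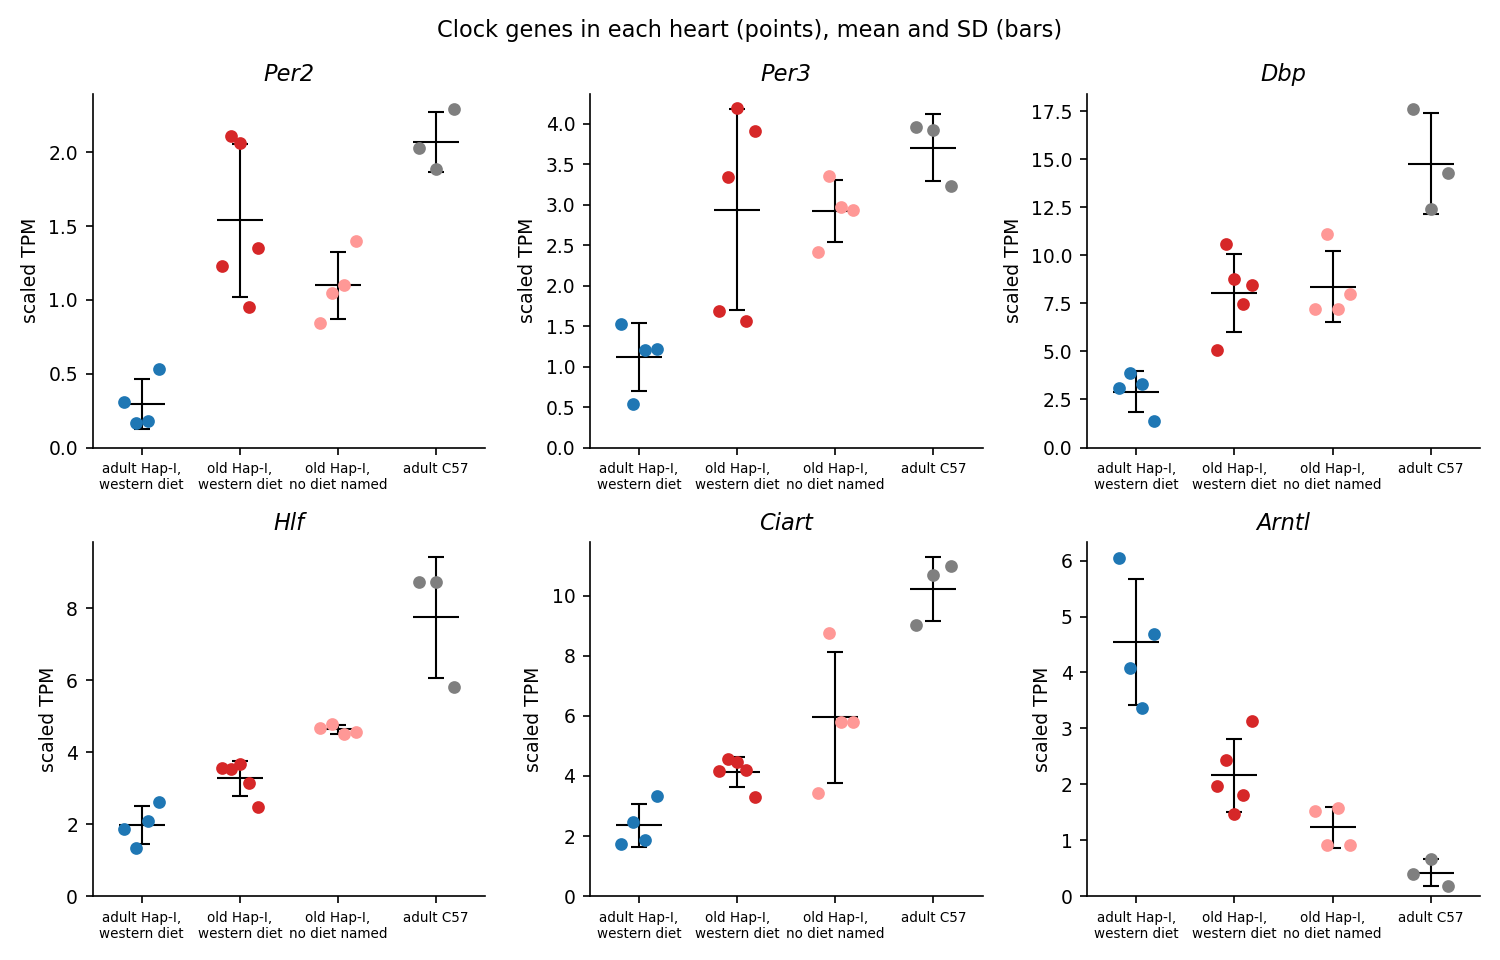
Level of 6 clock genes in each heart on a linear axis of scaled TPM, by group, with points for hearts and bars for mean and SD. Per2 and Dbp lie higher in every old than in every adult Hap-I heart on western diet, Arntl lies lower, and the adult C57 hearts have the highest mean of Per2, Per3, Dbp, Hlf and Ciart and the lowest of Arntl.

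Of the genes that respond to PPAR receptors, Ucp3 and Ehhadh fell in old hearts. Of 16 PPAR-responsive genes tested, these 2 fell and none rose, with a median log2 fold change of -0.31 and 14 negative estimates. Ucp3 (ENSMUSG00000032942, chr7:100472990-100486432), a mitochondrial carrier of the uncoupling protein family, measured 13.4, 13.7, 18.8, 25.3 and 12.1 scaled TPM in old hearts and 49.8, 42.9, 33.2 and 27.2 in adult hearts. Adult heart 4 and old heart 4 came closest, and the groups did not overlap. The level was 2.3-fold lower in old hearts, with a log2 fold change of -1.17 ± 0.25 (adjusted p = 0.0261). Ehhadh (ENSMUSG00000022853, chr16:21761287-21787807), an enzyme of peroxisomal fatty acid oxidation, measured 3.03, 2.26, 2.76, 3.52 and 2.47 in old hearts and 5.65, 4.55, 4.79 and 5.62 in adult hearts. All old hearts were again the lower, at a log2 fold change of -0.70 ± 0.14 (adjusted p = 0.02). Among 30 fatty acid oxidation genes Ehhadh was the only one called, and 26 estimates were negative with a median of -0.19.

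Pdk4 and Angptl4, also PPAR-responsive, were not called and were picked after their values were seen. Pdk4, the kinase that switches off pyruvate dehydrogenase, measured 75.3, 76.7, 154, 154 and 94.1 in old hearts and 249, 219, 162 and 200 in adult hearts, without overlap. Its log2 fold change was -0.95 ± 0.26 (adjusted p = 0.0616). Angptl4, a secreted inhibitor of lipoprotein lipase, measured 5.06, 4.21, 3.81, 7.34 and 5.15 against 16.5, 14, 8.9 and 5.32. Adult heart 4 lay inside the old range (adjusted p = 0.0748). The log2 fold change of Angptl4 was -0.14 in the hearts with Y-linked transcripts and -1.6 in those without. Old Hap-I hearts with no diet named held 29.1 to 40.7 of Pdk4 and 1.05 to 2.97 of Angptl4, below every heart of both western-diet groups. Adult C57 hearts, also with no diet named, held 3.82, 6.17 and 3.79 of Angptl4, which overlapped the old hearts on western diet.

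In glucose use the direction differed between members. Pfkfb2, the cardiac enzyme that makes the allosteric activator of phosphofructokinase, measured 15.5, 15, 18.9, 14.6 and 9.95 in old hearts and 6.72, 10.2, 8.53 and 8.19 in adult hearts. Old heart 5 was the only old heart within the adult range, and the log2 fold change was 0.73 ± 0.14 (adjusted p = 0.0195). Pgk1, a glycolytic enzyme, was lower in old hearts at 169 ± 8.26 against 210 ± 5.49 (log2 fold change -0.31 ± 0.07, adjusted p = 0.0261), although 54.7% of its 31-base words also occur in other genes, so its reads can be divided with them. Of 24 genes of glucose uptake, glycolysis and glycogen, 1 rose and 1 fell. Dld, the dihydrolipoamide dehydrogenase shared by pyruvate dehydrogenase and the tricarboxylic acid cycle, stood at 108 ± 6.25 in old and 147 ± 14.4 in adult hearts (log2 fold change -0.44 ± 0.09, adjusted p = 0.0261). It was the only gene called of 18 in the cycle, of which 16 had negative estimates. Cidea, a lipid droplet protein, stood at 22.6 ± 1.54 against 30.5 ± 3.19 (adjusted p = 0.0276), and it was the only gene called of 21 for lipid uptake and droplets. Cidea was also the only one called of 9 adipocyte markers, whose median was -0.20. Adipoq, the adipocyte hormone, averaged 0.205 scaled TPM in old and 0.447 in adult hearts, and the part of fat cells in the result was not tested. After the length correction described above Pgk1 and Cidea were not called, at adjusted p of 0.122 and 0.254. Nadk2, the mitochondrial NAD kinase, stood at 10.5 ± 1.4 against 16.1 ± 1.48 (adjusted p = 0.0348). All 7 calls of fuel genes named here ended without adult heart 1, at adjusted p of 0.0754 to 0.114, and all 7 without adult heart 3, at 0.0521 to 0.0931. Without old heart 3, 4 of them ended, without old heart 1, 3, and without adult heart 2, 2.

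Fkbp5, a chaperone of the glucocorticoid receptor that glucocorticoids induce, measured 7.59, 5.22, 5.78, 8.46 and 3.9 scaled TPM in old hearts and 2.49, 2, 2.08 and 4.02 in adult hearts. Only old heart 5 and adult heart 4 overlapped, and the log2 fold change was 0.97 ± 0.18 (adjusted p = 0.019). The call ended without adult heart 1 or 3, at adjusted p of 0.0685 and 0.0541. It was the only gene called of 17 glucocorticoid targets and metallothioneins, of which 16 had positive estimates with a median of 0.25. Zbtb16, a transcription factor that glucocorticoids also induce, stood at 1.09 (adjusted p = 0.0575). Zbtb16 was picked after its values were seen.

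**Figure D2:**
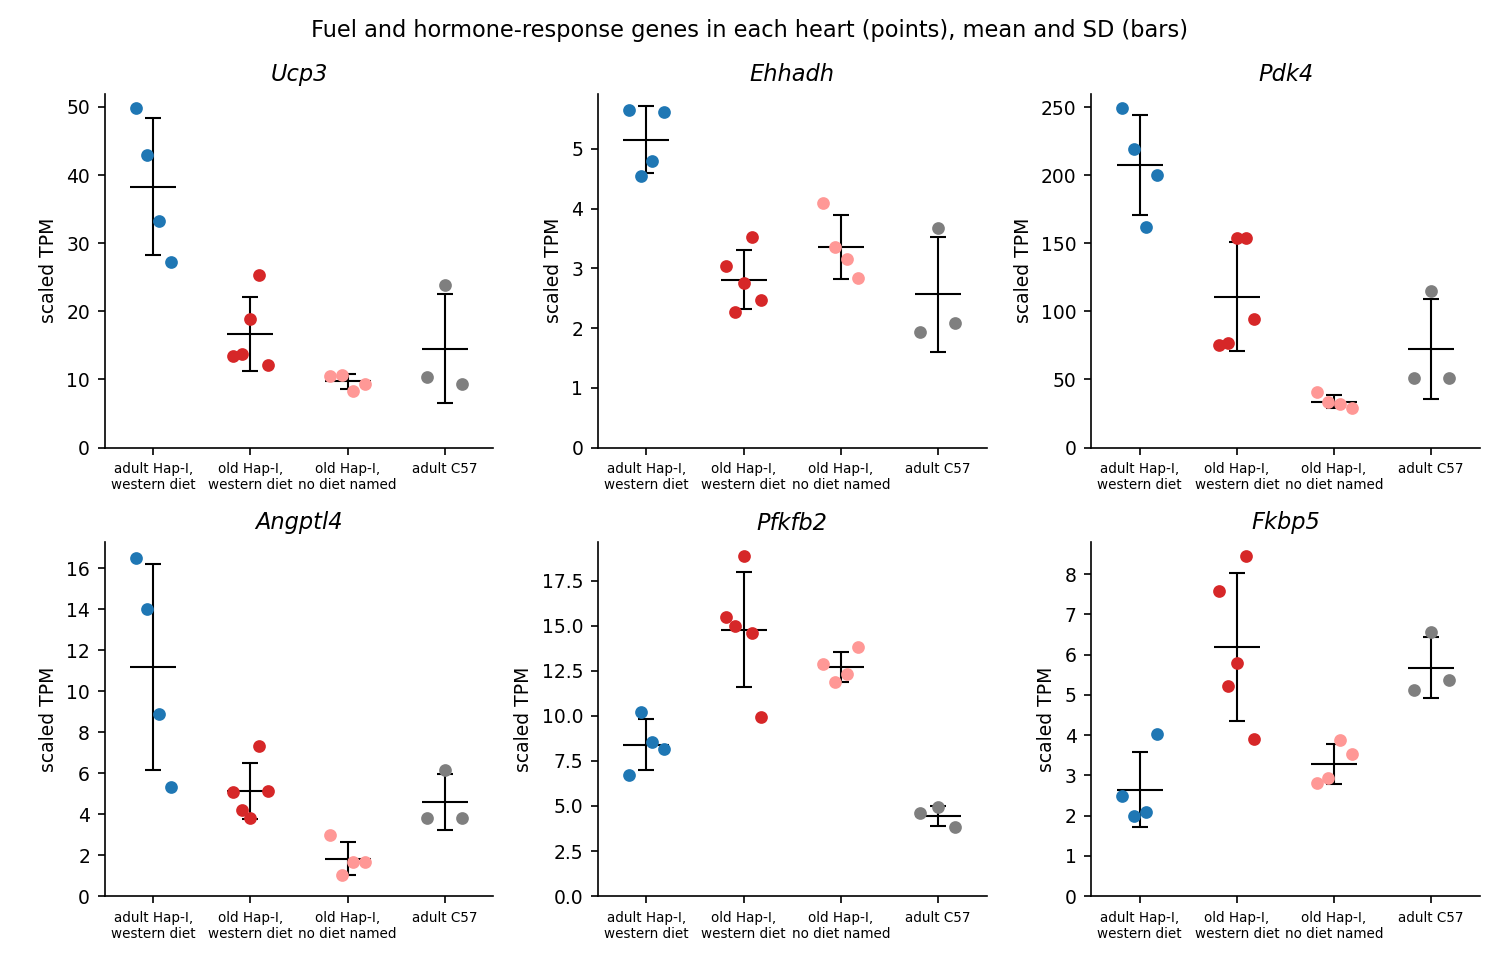
Level of 6 fuel and hormone-response genes in each heart on a linear axis of scaled TPM, by group, with points for hearts and bars for mean and SD. Ucp3, Ehhadh and Pdk4 lie lower in every old than in every adult Hap-I heart on western diet, and Pfkfb2 and Fkbp5 have the higher mean in old hearts.

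Nuclear genes of the respiratory chain had small negative estimates throughout and none was called. All 37 subunits of complex I, all 21 of complexes III and IV with cytochrome c, and all 15 of the ATP synthase had negative log2 fold changes, with medians of -0.20, -0.19 and -0.24. At an unadjusted p under 0.05, 4 genes in each of these lists passed. The 2 ATP synthase members of smallest p were Atp5b, at 2880 ± 165 against 3750 ± 400, and Atp5f1, each at a log2 fold change of -0.38 (adjusted p = 0.071). After the length correction the 3 medians were -0.07, -0.06 and -0.17, and without size factors -0.05, -0.04 and -0.09. In the 4 hearts with Y-linked transcripts they were 0.08, 0.07 and 0.00, so the direction did not hold there. In the hearts without such transcripts the 3 medians were -0.38, -0.43 and -0.43. In bulk tissue, fewer cells of a type and less RNA per cell cannot be told apart. Of 38 mitochondrial ribosome genes 1 fell, Mrps22, at 11.3 ± 0.924 against 15.2 ± 1.18 (log2 fold change -0.40 ± 0.08, adjusted p = 0.0225). Apoo, a protein of the mitochondrial contact site, stood at 103 ± 20.8 against 149 ± 15.5 (adjusted p = 0.0396), and 43.3% of its 31-base words also occur in other genes. Neither Mrps22 nor Apoo was called after the length correction, at adjusted p of 0.168 and 0.0578. The calls of Mrps22 and Apoo each ended without old heart 1 or 3 or adult heart 1 or 3, and that of Apoo also without adult heart 2, at adjusted p of 0.0519 to 0.107.

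In the proteasome, the complex that degrades ubiquitin-marked proteins, a few genes fell in old hearts by small amounts. Of 30 listed genes tested, 4 fell and none rose, all 30 estimates were negative, 17 passed an unadjusted p under 0.05, and the median was -0.19. Over all genes tested 0.718% were called lower. The 4 listed genes that fell belong to the regulatory particle. Psmc2, an ATPase of its base, measured 40.6, 36.9, 37.4, 31.3 and 38.8 in old hearts and 52, 43.3, 49.7 and 52 in adult hearts, a log2 fold change of -0.40 ± 0.09 (adjusted p = 0.0298). Psmc6, another of these ATPases, stood at 28.3 ± 1.37 against 35.3 ± 1.43 (adjusted p = 0.028). The lid subunits Psmd6 (34.9 ± 1.1 against 42.2 ± 1.04) and Psmd7 (52 ± 2.84 against 62.8 ± 3.44) each had an adjusted p of 0.0489. None of the 4 overlapped between groups, which was also so for 6.31% of all genes tested. Psmd13, a further subunit of this particle that the list did not hold, was picked after its values were seen. It also fell, at 36.8 against 48.2 without overlap (log2 fold change -0.38, adjusted p = 0.026). Ube2a, a ubiquitin-conjugating enzyme outside the proteasome, stood at 7.72 ± 1.12 against 11.3 ± 1.05 (log2 fold change -0.51 ± 0.09, adjusted p = 0.0172). After the length correction none of the 4 listed proteasome genes was called (adjusted p of 0.0561 to 0.381) and the list median was -0.10. Without size factors that median was -0.05. The calls of the 4 listed genes and of Ube2a ended without adult heart 1, at adjusted p of 0.0659 to 0.143. Those of the 4 listed proteasome genes also ended without old heart 3 or adult heart 3. Of these 4, 1 to 3 ended without old heart 1, 2 or 5 or adult heart 2 or 4.

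Several genes that tie the cytoskeleton to the membrane and matrix rose in old hearts. Of 37 genes of focal adhesions and integrins, 4 rose (Tns1, Tns2, Utrn and Dmd) and none fell. The list had a median log2 fold change of 0.20 and 30 positive estimates. Over all genes tested 1.67% were called higher and 48.7% of the estimates were positive. Tns2, a tensin that links integrin tails to actin, measured 8.92, 5.61, 9, 4.82 and 10.4 scaled TPM in old hearts and 2.78, 1.81, 3.75 and 2.63 in adult hearts. The groups did not overlap and the log2 fold change was 1.20 ± 0.23 (adjusted p = 0.019). Tns1, its close relative, was among the most abundant genes called, at 90.3 ± 8.99 against 63.8 ± 7.81 (log2 fold change 0.50 ± 0.1, adjusted p = 0.0213). Utrn, which encodes utrophin, measured 6.42, 3.74, 4.07, 3.51 and 5.47 against 1.44, 2.63, 2.18 and 2.09, again without overlap (log2 fold change 0.86 ± 0.17, adjusted p = 0.0195). Dmd, which encodes the related dystrophin, stood at 11 ± 2.68 against 6.69 ± 0.798, with old heart 4 inside the adult range (adjusted p = 0.0396).

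Exchange factors that activate small GTPases of the actin cytoskeleton were among the genes called higher. Mcf2l, a guanine nucleotide exchange factor, measured 20.1, 9.25, 14.3, 10.5 and 15.9 in old hearts and 5.79, 4.28, 5.91 and 8.64 in adult hearts, a log2 fold change of 1.05 ± 0.2 (adjusted p = 0.019). Arhgef12 stood at 18.7 ± 2.29 against 12.2 ± 1.23 (adjusted p = 0.0151) and Trio at 1.71 ± 0.556 against 0.82 ± 0.168 (adjusted p = 0.0448). Both are exchange factors of the same kind. Raph1, which recruits actin regulators to the leading edge, rose by 0.80 ± 0.15 on the log2 scale (adjusted p = 0.019), and Abi1, a member of the actin-nucleating WAVE complex, by 0.69 ± 0.15 (adjusted p = 0.0261). Sptbn1, a spectrin of the membrane skeleton, stood at 85.4 ± 16.8 against 54.7 ± 7.26 (adjusted p = 0.0261). The cross-linker Plec stood at 15.5 ± 3.3 against 10.1 ± 0.938 (adjusted p = 0.0481). Plec was picked after its values were seen. Xirp2, an actin-binding protein of the intercalated disc, measured 58.8, 45.8, 48.1, 62.1 and 33.4 in old hearts and 18.8, 34.2, 23.6 and 19.4 in adult hearts. Old heart 5 lay just under adult heart 2, and the log2 fold change was 1.03 ± 0.19 (adjusted p = 0.019). Myl9, a myosin light chain of smooth muscle, went the other way, at 11.3 ± 2.26 against 21.6 ± 3.3 (log2 fold change -0.89 ± 0.18, adjusted p = 0.0225). It was the only smooth muscle or pericyte marker called of 17, and the list had a median of 0.03. Leaving Arhgap26 and Arhgap27 aside, every one of these 13 calls ended without adult heart 1, at adjusted p of 0.0624 to 0.154. Without adult heart 3, 11 of the 13 ended, at 0.0521 to 0.112. Without old heart 3, 6 ended, without old heart 1 or adult heart 2, 5, without old heart 5, 2, and without old heart 2, 1. After the length correction Tns2, Utrn, Mcf2l, Arhgef12, Raph1, Abi1, Sptbn1 and Myl9 stayed called, whereas Tns1, Dmd, Trio, Plec and Xirp2 were not, at 0.0746 to 0.202.

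Several regulators of chromatin rose in old hearts, but none of those listed was called once transcript length was corrected for. Of 47 listed chromatin regulators, 8 rose and none fell. Among the 8 were Kmt2a, Mga, Kdm6b, Ash1l, Chd6 and, named after their values were seen, Kdm5a and Ep300. In the list 41 estimates were positive, 28 passed an unadjusted p under 0.05, and the median was 0.30. After that correction the median was 0.08. Kmt2a, a histone methyltransferase, measured 2.95, 2.25, 2.93, 1.83 and 2.51 scaled TPM in old hearts and 1.3, 1.29, 1.34 and 1.38 in adult hearts. The groups did not overlap, and the log2 fold change was 0.58 ± 0.09 (adjusted p = 0.0146, and 0.062 after the length correction). Its call held without any 1 of the 9 hearts. Mga, a transcription factor that dimerizes with MAX, had the largest fold change of the 8, with 5.07 ± 0.906 against 2.42 ± 0.571 (log2 fold change 0.83 ± 0.17, adjusted p = 0.0236, and 0.0502 after the length correction). Kdm6b, a histone demethylase, stood at 3.38 ± 0.626 against 2.07 ± 0.176 (adjusted p = 0.025). Chromatin genes outside the list were not counted in either direction. Of these, Cbx3, a heterochromatin protein, and Hat1, a histone acetyltransferase, fell without overlap and were picked after their values were seen. Their log2 fold changes were -0.41 (adjusted p = 0.0251) and -0.35 (adjusted p = 0.026).

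Among 46 RNA splicing factors, 2 rose and 1 fell, with a median of 0.06. Over all genes tested 1.67% rose and 0.718% fell. Celf2 rose by 0.71 ± 0.17 on the log2 scale (adjusted p = 0.0382) and Qk by 0.49 ± 0.11 (adjusted p = 0.0261), whereas Hnrnpa1 fell by 0.39 on the log2 scale, with a standard error of 0.08 (adjusted p = 0.0261). None of these 3 was called after the length correction. Cpeb1, which controls polyadenylation and translation of bound transcripts, measured 6.12, 8.85, 11.7, 6.3 and 8.02 in old hearts and 4.65, 2.82, 3.72 and 4.09 in adult hearts. It rose by 0.91 ± 0.16 on the log2 scale without overlap (adjusted p = 0.0151, and 0.0118 after the length correction), and the call held without any 1 of the 9 hearts. In the TGF-beta pathway 2 of 30 genes rose and none fell, against 1.67% called higher over all genes tested. Smad4, the shared mediator, stood at 10.7 ± 0.4 against 8.21 ± 0.46 (adjusted p = 0.0261). Skil, a repressor of SMAD proteins, stood at 2.83 ± 0.518 against 1.6 ± 0.198 (adjusted p = 0.0385). Among 24 p53 targets and senescence genes Mdm4, an inhibitor of p53, was the only one called, at 5.76 ± 2.37 against 2.61 ± 0.585 (log2 fold change 0.85 ± 0.2, adjusted p = 0.0339), and 13.8% of its words occur in other genes. With transcript length corrected for, Smad4 stayed called, whereas Skil and Mdm4 were not, at adjusted p of 0.0592 and 0.0979. Zbtb20, a transcriptional repressor, stood at 8.9 ± 1 against 5 ± 1.06 (adjusted p = 0.0151, and 0.274 after the length correction). A further pair of genes fell: Naa35, a subunit of an N-terminal acetyltransferase, at 24.8 ± 2.39 against 35.5 ± 3.58 (adjusted p = 0.0193), and Msh3, a mismatch repair protein, at 3.61 ± 0.706 against 5.62 ± 0.795 (adjusted p = 0.0236). Leaving Cbx3 and Hat1 aside, 17 calls were of genes named for chromatin, RNA and these pathways. Of these 17, 15 ended without adult heart 1, 13 without adult heart 3, 13 without old heart 3 and 11 without old heart 1. A further 10 ended without adult heart 2, 3 without old heart 2 and 1 without adult heart 4, counted separately for each heart. The adjusted p of these losses ran from 0.0517 to 0.13.

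Transcript length moved with the whole comparison. Across genes the log2 fold change had a Spearman rank correlation of 0.44 with transcript length, given as a description because genes share their libraries, and of -0.03 after the correction. The median length was 6330 bases among genes called higher, 2025 among genes called lower and 3026 among all genes tested. In the 10th of genes with the shortest transcripts the median log2 fold change was -0.13, with 5 genes called higher and 9 lower. In the 10th with the longest it was 0.19, with 93 called higher and 1 lower. The part of length in the results was not tested beyond the correction.

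**Figure D3:**
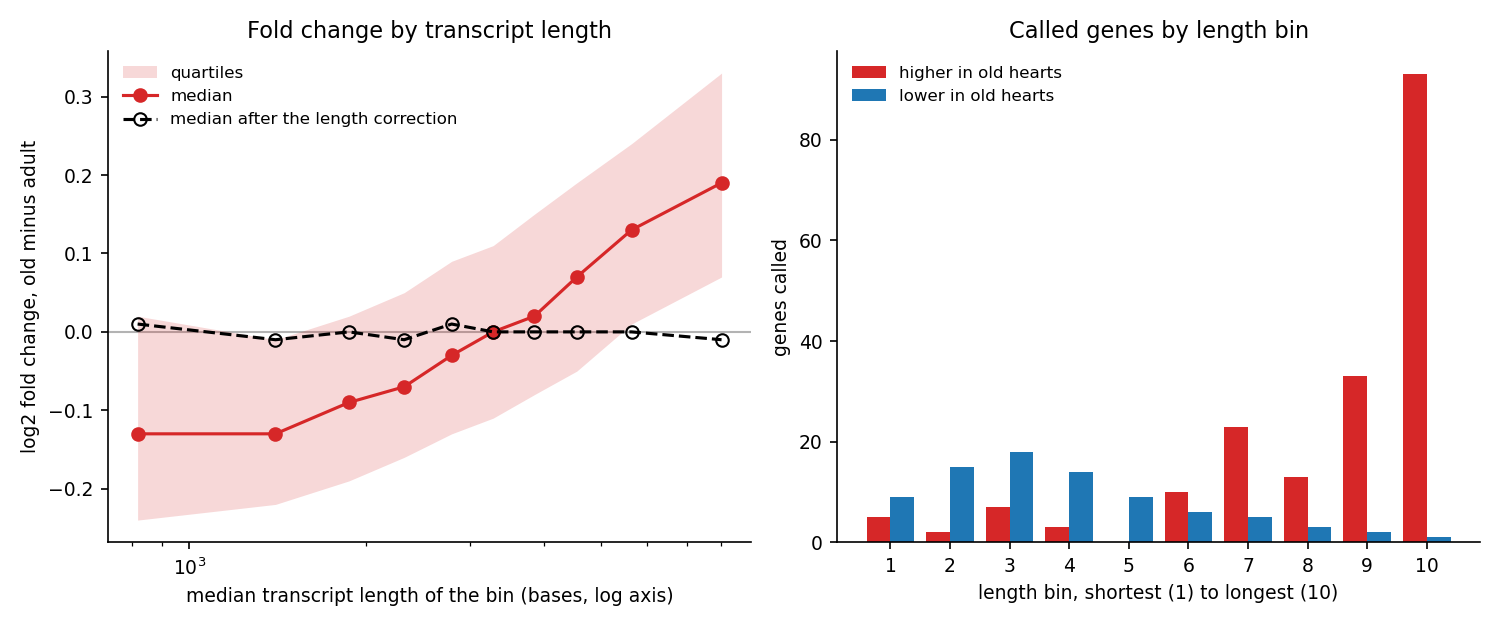
Left, median log2 fold change (old minus adult, quartiles shaded) in 10 bins of transcript length on a log axis in bases, before and after the length correction. Right, genes called per bin in each direction. The median climbs from -0.13 to 0.19 over the bins and stays near 0 after the correction, and the longest bin holds 93 of the genes called higher.

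**Figure D4:**
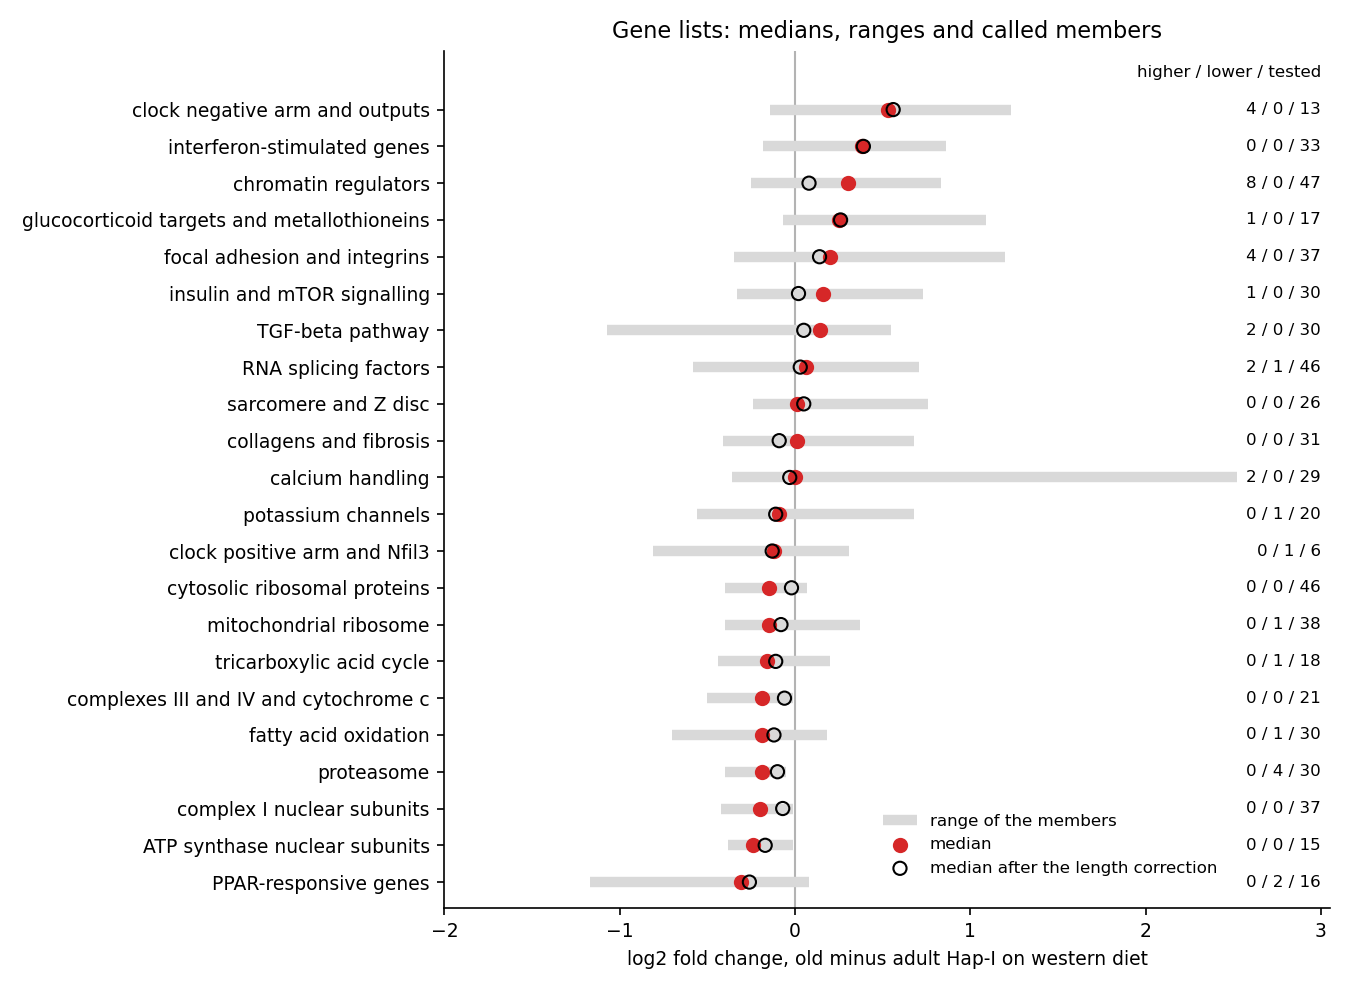
Log2 fold change (old minus adult) of 22 gene lists, with the range of members as a grey bar, the median as a filled point and the median after the length correction as an open point, and the numbers called higher, called lower and tested at the right. Clock repressors and outputs have a median of 0.53 that is 0.56 after the correction, whereas that of chromatin regulators goes from 0.30 to 0.08.

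Ion channels and signalling enzymes held few calls. Kcnq1, the pore of the slow delayed rectifier potassium current, measured 10.9, 9.55, 11, 8.87 and 10 scaled TPM in old hearts and 13.5, 12.4, 12.4 and 16.4 in adult hearts. The groups did not overlap (log2 fold change -0.40 ± 0.09, adjusted p = 0.0261), and Kcnq1 was the only one called of 20 potassium channel genes. Of 29 calcium handling genes 2 rose, against 1.67% of all genes tested. Cacnb2, a beta subunit of the L-type calcium channel, measured 19, 19.9, 21.8, 15.1 and 14.9 against 10.5, 10.8, 13.5 and 14.1 (adjusted p = 0.0365), and Camk2b, a calmodulin-dependent kinase, at 5.08 ± 1.05 against 3.28 ± 0.23 (adjusted p = 0.0261). Neither overlapped between groups, which was also so for 6.31% of all genes tested. Gsk3b, a kinase inhibited by insulin signalling, stood at 7.8 ± 1.91 against 4.22 ± 0.608 (adjusted p = 0.045) and was the only one called of 30 insulin and mTOR genes. Cds1, which makes the precursor of phosphoinositides, measured 6.65, 5.3, 5.95, 9.11 and 6.66 against 2.41, 3.43, 3.96 and 3.5 without overlap (log2 fold change 0.83 ± 0.15, adjusted p = 0.0167). Plekha6 stood at 17.6 ± 3.07 against 10.4 ± 1.1 (log2 fold change 0.69 ± 0.12, adjusted p = 0.0151). Camk2b and Gsk3b were not called after the length correction, at adjusted p of 0.0592 and 0.0849. The log2 fold change of Cacnb2 was 0.11 in the hearts with Y-linked transcripts and 0.86 in those without. For Gsk3b these values were 0.31 and 1.04. All 6 of these calls ended without adult heart 1, at adjusted p of 0.0512 to 0.145. Without adult heart 3, 4 ended, without old heart 1 or adult heart 2, 3, and without old heart 2 or 3, 2.

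Genes tied to angiotensin signalling and cardiac stress held few calls. Of 17 natriuretic peptide and fetal contractile genes 1 rose, Xirp2, described above, and none fell, with a median of 0.07. Agtr1a, the mouse's own angiotensin type 1a receptor, stood at 12.8 ± 1.92 in old and 12.5 ± 1.66 in adult hearts (log2 fold change 0.03 ± 0.13, adjusted p = 0.911). The human transgene was not analysed here. Of 12 renin-angiotensin genes none was called by limma and none passed an unadjusted p under 0.05. Ace, the converting enzyme, stood at 7.01 ± 3.71 against 6.49 ± 3.53 (adjusted p = 0.916) and Agt, the precursor, at 0.488 ± 0.239 against 0.746 ± 0.282 (adjusted p = 0.362). Nppa, the atrial natriuretic peptide, ranged from 82.4 to 174 in old hearts and from 30.4 to 489 in adult hearts, where hearts 1 and 4, with the high Myl7, were the highest. Nppb, the ventricular peptide, stood at 196 ± 91.9 against 150 ± 115 (adjusted p = 0.548) and Myh7, the slow myosin heavy chain, at 51.4 ± 35.5 against 24.1 ± 13.4 (adjusted p = 0.2). Acta1, the skeletal actin that rises in stressed hearts, measured 264, 169, 146, 323 and 174 in old hearts and 183, 96, 40.8 and 44.8 in adult hearts (log2 fold change 1.43 ± 0.4, adjusted p = 0.0664), and was picked after its values were seen. Only adult heart 1 lay within the old range. Col1a1 (adjusted p = 0.979) and Col3a1 (adjusted p = 0.595) were not called, nor was any of 31 collagen and fibrosis genes, whose median was 0.01, and 2 of these passed an unadjusted p under 0.05.

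Interferon-stimulated genes had positive estimates that rested on few hearts. None of 33 was called by limma and 1 passed an unadjusted p under 0.05, with 32 positive estimates and a median log2 fold change of 0.38. Their summed level ran from 233.2 to 829.8 in old hearts and from 263 to 372.7 in adult hearts. Irf7, a transcription factor of the interferon response chosen after its values were seen, measured 12.7, 6.5, 8.99, 49.4 and 72.4 in old hearts and 5.97, 12.8, 11.2 and 13.5 in adult hearts (adjusted p = 0.418). Old hearts 4 and 5 were the high ones and are the old hearts with Y-linked transcripts. Without old heart 5 the list median was 0.10. Of the marker lists for macrophages (18 tested), lymphocytes (4), fibroblasts (15), endothelium (23), the endocardium and lymphatics (10), nerve and Schwann cells (8) and red cells and platelets (7), no member was called, and medians ran from -0.11 to 0.29. Members of these lists with an unadjusted p under 0.05 numbered 2 for fibroblasts, 3 for endothelium and 1 for the endocardium and lymphatics.

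In a small set of genes the adult Hap-I group on western diet stood apart from all 12 other hearts, and for most of them near-identical copies make the value uncertain. The labels give no litter or colony for any group, so a difference in genetic background cannot be told apart from age in these genes. Gm4737 (ENSMUSG00000048087, chr16:46152985-46155077) was listed at 0 in all 12 other hearts and measured 7.66, 7.72, 12.2 and 8.79 scaled TPM in adult hearts 1 to 4, and 95.6% of its 31-base words occur in other genes. Ahcy (ENSMUSG00000027597, chr2:155059310-155074497), the hydrolase of S-adenosylhomocysteine, measured 11.5, 9.61, 11.7, 9.46 and 9.34 in old hearts and 4.76, 4.22, 0.523 and 5.08 in adult hearts, and 71.4% of its words are shared. The sum of Ahcy and Gm4737 differed less and was lower in old hearts, at 10.3 ± 1.18 in old and 12.7 ± 0.819 in adult hearts. Eif3j2 (ENSMUSG00000043424, chr18:43475418-43477796), a copy of a translation initiation subunit, measured 7.82, 9.31, 6.36, 8.54 and 6.88 in old hearts and 18.3, 19.4, 15.9 and 17.7 in adult hearts. The other 7 hearts ranged from 6.3 to 10, and 94.9% of its words are shared. Its partner Eif3j1 was not called (adjusted p = 0.0584), and the sum of the pair stood at 16.9 ± 1.33 against 25 ± 1.65. Pcna-ps2, a copy of the replication clamp gene picked after its values were seen, was listed at 0 in all old hearts and at 2.19 to 4.05 in adult hearts. The mitochondrially encoded complex I subunit mt-Nd3 measured 5730, 5420, 5130, 4680 and 3890 in old hearts and 19100, 19500, 12000 and 14600 in adult hearts (log2 fold change -1.70 ± 0.17, adjusted p = 0.000148). The other 7 hearts held 2890 to 6580, and 98.1% of its words occur in other genes. It was the only gene called of 13 mitochondrially encoded genes, whose median was -0.04. Its neighbours in the list differed in sign, with mt-Co3 at -0.98 (adjusted p = 0.0805) and mt-Nd4l at 0.91 (adjusted p = 0.068), each picked after its values were seen.

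With fewer shared words, Pigu (ENSMUSG00000038383, chr2:155278243-155357430), a subunit of the enzyme that attaches lipid anchors to proteins, measured 10.3, 11.2, 9.53, 11.5 and 12.9 in old hearts and 16.8, 16.3, 18 and 17.1 in adult hearts. The other 7 hearts lay between 10.8 and 13.3, and the log2 fold change was -0.58 ± 0.08 (adjusted p = 0.00657) with 1.1% of words shared. Among genes in which the adult group did not stand apart from every other heart, the complement inhibitor Cd59a, whose product sits on such an anchor and which was picked after its values were seen, measured 39.5, 51.8, 41.6, 52.2 and 40.2 in old hearts and 30.5, 35.6, 32.3 and 27.2 in adult hearts (log2 fold change 0.50 ± 0.1, adjusted p = 0.0227). Its neighbour Cd59b rose as well, at 8.04 ± 1.33 against 4.46 ± 0.725 (adjusted p = 0.0172), and the sum of both stood at 53.1 ± 7.64 against 35.9 ± 4.06. Old Hap-I hearts with no diet named held 35 to 41.8 of Cd59a and 4.16 to 6.98 of Cd59b, which overlapped the adult Hap-I hearts. The call of Ahcy ended without old heart 3, at an adjusted p of 0.0541, and those of Cd59a and Cd59b without adult heart 1 or 3, at 0.0521 to 0.081. Those of Gm4737, Eif3j2, Pigu, Pcna-ps2 and mt-Nd3 held without any 1 of the 9 hearts.

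The 7 hearts outside the comparison give another old-minus-adult contrast, old Hap-I with no diet named minus adult C57, which shares no heart with the first. The transgene differs with age there. In it 1282 genes were called (11.2%), 819 higher (7.17%) and 463 lower (4.06%). Without size factors it called 204 higher and 21 lower, and scaled to totals without mitochondrial genes 307 and 56. The count was 396 and 372 without C57 heart 1 or 3 and 826, 664 and 558 without old Hap-I heart 1, 3 or 4 of no named diet. Of the 191 genes called higher on western diet, 171 (89.5%) had a positive estimate in that contrast and 104 were also called higher. Of the 82 called lower, 71 (86.6%) were negative and 23 were also called lower. Over all genes tested the sign was the same in 68.0%. That contrast shares the length trend, with a rank correlation of 0.46. After the length correction 62 of 79 and 46 of 61 called genes kept the sign in it, against 60.2% of all genes.

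The difference between the contrasts was called for 78 genes (0.683%), 37 higher (0.324%) and 41 lower (0.359%), of which 18 were among the 273. Of the 5 listed clock genes called, 4 were among these and had opposite signs in the contrasts. Per2 had 0.95 on western diet and -0.55 in the other contrast, a difference of 1.51 (adjusted p = 0.00334). Dbp had 1.23 and -0.76, a difference of 1.99, and Hlf 0.53 and -0.62, a difference of 1.15, with adjusted p of 0.0109 and 0.0141. Arntl had -0.81 and 0.65, a difference of -1.47 (adjusted p = 0.0141). The adult C57 hearts held 1.89 to 2.29 of Per2, which overlapped the old hearts on western diet, and 0.18 to 0.671 of Arntl, below all old hearts. Fkbp5 also turned, with 0.97 and -0.64 (difference 1.61, adjusted p = 0.0141), as did Mcf2l with 1.05 and -0.37 (difference 1.43, adjusted p = 0.036). Cd59a, Cd59b, Ehhadh and Kcnq1 had opposite signs as well, with differences of 0.98, 1.14, -1.01 and -0.90. Slc41a3, Tmem171, Banp and Rab17, which no list held and which were named after the values were seen, had differences of -1.74, -1.76, 1.86 and -0.92. The other 4 were Gm4737 (-3.31), Pcna-ps2 (-1.90), Eif3j2 (-1.22) and Sept10 (-0.58). The count of 78 fell to 27 without the first C57 heart, 39 without the third, 47 and 46 without old Hap-I hearts 1 and 4 of no named diet, and 49 and 48 without adult hearts 1 and 3 on western diet.

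**Figure D5:**
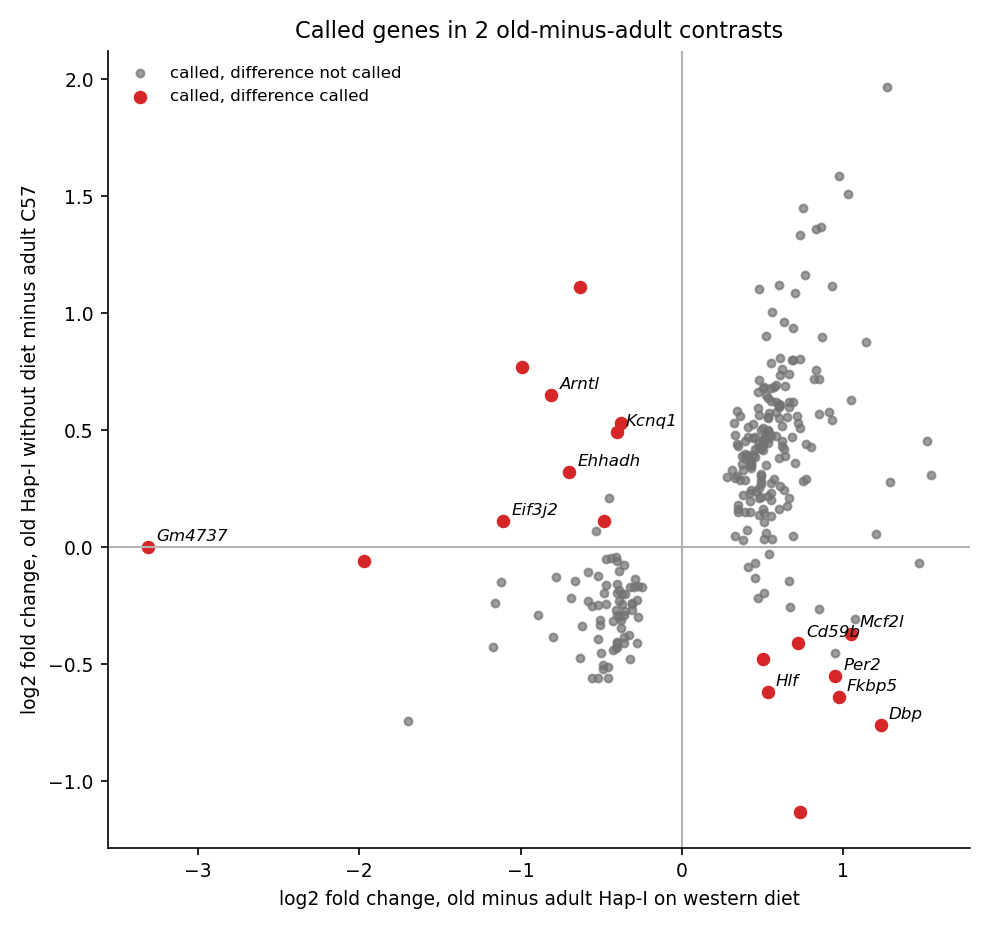
Log2 fold change of the 273 called genes on western diet (horizontal) against old Hap-I with no diet named minus adult C57 (vertical), with 1 point per gene and red points for the 18 genes whose difference between the contrasts was called. Most grey points lie in the quadrants of equal sign, and the red points Per2, Dbp, Hlf and Fkbp5 lie at lower right and Arntl at upper left.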

How the data were processed

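RNA of 16 mouse hearts was extracted with a Qiagen column kit and made into TruSeq stranded libraries after a pull-down of polyadenylated RNA, per the labels' protocols. The authors deposited 1 table of TPM per gene, per the file headers. The build GRCm38 and the tools kallisto and DESeq2 are named, without versions, per the submitters' processing notes. kallisto assigns reads by 31-base words and divides reads that match several genes by an estimate.

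TPM of the 11415 genes that reached 1 TPM in 3 or more libraries were scaled by size factors (median of ratios over 11177 genes). One model with a mean per group over all 16 libraries (12 residual degrees of freedom) was fitted to log2(scaled TPM + 1) with limma 3.58.1 in R 4.3.3 with a variance trend. Tests were two-sided and adjusted over all genes tested, and the script was tested on simulated data. The contrasts were old minus adult Hap-I on western diet, old Hap-I with no diet named minus adult C57, and their difference. P-values measure the spread between these hearts. Lengths and positions came from the GENCODE annotation of GRCm38 and promoters from RefSeq, and shared words were counted over the GENCODE transcripts.

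The members, the 70 gene lists and the tests were chosen with earlier results of these data known. Named genes were the 15 with the largest rise and the 15 with the largest fall among called genes without overlap whose higher mean was 5 scaled TPM or more, the 10 most abundant called genes, up to 6 called members or else 2 members of smallest p per list, and always Agtr1a, Ace, Agt, Nppb, Nppa, Myh7, Col3a1 and Col1a1. Some are given by counts alone, and others were picked after their values were seen, as stated beside them. Alternatives were other scalings, pseudocounts, filters, variance models, thresholds, covariates (Y-linked transcripts, atrial markers, transcript length), subsets and the omission of each library. Scaling to totals without mitochondrial genes was added after the data were seen.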

Additional observations from a re-analysis of the deposited data

Results flagged for a closer look

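For these named genes limma called a difference between the change on western diet (old minus adult Hap-I) and that of old Hap-I with no diet named minus adult C57. The differences in log2 fold change were 1.51 for Per2, 1.99 for Dbp, 1.15 for Hlf, 1.38 for Ciart, -1.47 for Arntl, 1.61 for Fkbp5, 1.43 for Mcf2l, 0.98 for Cd59a, 1.14 for Cd59b, -1.01 for Ehhadh and -0.90 for Kcnq1. They were -3.31 for Gm4737, -1.90 for Pcna-ps2, -1.22 for Eif3j2, -1.74 for Slc41a3, -1.76 for Tmem171, 1.86 for Banp, -0.92 for Rab17 and -0.58 for Sept10. The adult groups of these contrasts differ in transgene and labelled diet, so these cannot be told apart from age in such a difference.

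Some hearts stood away from the rest of their group, by a gap that chance alone gives in about 1 in 20 groups. Many named genes were screened, so the gaps listed here may be such chance cases, and they were not tested further. Among old hearts these were Myl7 at 17.5 scaled TPM in heart 4 (the others 0.358 to 1.04), Nmrk2 at 15.7 in heart 2 (3.92 to 5.31), Oas2 at 14.5 in heart 5 (1.6 to 3.89), Msh3 at 4.84 in heart 5 (3.13 to 3.54) and Slc41a3 at 31.1 in heart 1 (20 to 21.3). Among adult hearts these were Msh3 at 6.8 in heart 4 (5.08 to 5.34), Eif3j1 at 8.23 in heart 4 (6.69 to 6.93), Cd59b at 5.54 in heart 2 (4 to 4.24), Pgk1 at 218 in heart 1 (206 to 207) and Slc8a1 at 2.3 in heart 4 (listed at 0 in the others).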

How the results depend on the processing

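On western diet 273 genes were called, and the total number called under the alternatives was 140 after the length correction, 112 with this and the covariate for Y-linked transcripts, 22 without scaling, 27 scaled to totals without mitochondrial genes, 104 with the atrial covariate, 12 and 8 in hearts with and without Y-linked transcripts, 166 without the filter, 172 with a filter at 5 TPM, 1504 with library weights, 5 with only the groups compared, 11 at an adjusted p under 0.01 and 19 at 2-fold. They ran from 28 to 572 over the omission of each library. Between old Hap-I with no diet named and adult C57, where 1282 were called, the totals were 785, 723, 225, 363 and 730 for the first 5 of these settings, 3609 with library weights, 2431 with only the groups compared, 268 and 109 at the stricter thresholds, and 372 to 1478 over the omissions. For the difference, with 78 called, the totals were 8 without scaling (4 higher, 4 lower), 24 scaled to totals without mitochondrial genes (14 higher, 10 lower), 50 at 5 TPM, 486 with library weights, 11 and 40 at the thresholds, and 27 to 115 over the omissions. The difference could not be fitted with only the groups compared, since it uses all groups, and no subset without Y-linked transcripts exists for the other contrasts. The subsets have fewer hearts; for the other settings the cause was not tested. No named gene that was called changed sign under any alternative run, and none of these results reversed. These genes were chosen as called in the same hearts that the alternatives use, so a kept sign was likely beforehand. No paired analysis was possible because the labels give no replicate numbers. TPM keep no depth, so no counting error could be given.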

Other observations

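Of the called genes, 5 lay close together on chromosome 2: Ahcy, Pigu, Procr, Myl9 and Rab5if within chr2:155059310-156873563 (GRCm38). The window of 2 Mb that starts at Ahcy held 34 genes tested, and it was chosen after the values were seen. No other window of 2 Mb held more than 4, and chromosome 2 held 30 called of 953 genes tested (3.15%, against 2.39% overall). Chromosome 13 (15 of 379, 3.96%) and chromosome 18 (11 of 285, 3.86%) held larger shares. Ahcy was listed as higher in old hearts and the other 4 were lower. However, 71.4% of the words of Ahcy occur in other genes. Its sum with Gm4737 was lower in old hearts, at 10.3 ± 1.18 against 12.7 ± 0.819. Procr and Rab5if were picked after their values were seen. Procr, the endothelial protein C receptor, stood at 0.582 ± 0.217 scaled TPM in old and 1.26 ± 0.229 in adult hearts (limma adjusted p = 0.0495), and Rab5if at 38.1 ± 4.63 against 50.5 ± 2.11 (adjusted p = 0.0227). The calls of Procr, Myl9 and Rab5if ended without adult heart 1 or 3 and old heart 3, that of Rab5if also without old heart 1, that of Procr also without old hearts 1, 2 and 4 and adult heart 2, and that of Ahcy without old heart 3, at adjusted p of 0.0512 to 0.159.

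Slc8a1, the cardiac sodium-calcium exchanger, picked after its values were seen, measured 22.1, 10.6, 14.9, 5.41 and 0 in old hearts and 0, 0, 0 and 2.3 in adult hearts, and was listed at 0 in all adult C57 hearts. A listed 0 may be a failed estimate, which was not tested, and no fold is given (limma adjusted p = 0.11). Nfat5, the factor of the osmotic stress response, was picked likewise and was called under every omission of 1 of the 9 hearts and in the fit of these hearts alone. It measured 3.95, 3.1, 3.79, 3.17 and 3.49 in old hearts and 1.84, 1.47, 1.58 and 1.63 in adult hearts (log2 fold change 0.77 ± 0.09, limma adjusted p = 0.00055). Among other genes lower in old hearts, the rule named As3mt, an arsenic methyltransferase (21.4 ± 2.85 against 30.9 ± 3.61, adjusted p = 0.024), Cetn3, a centrin (11.7 ± 2 against 17 ± 1.72, 0.0345), and Ift81, of ciliary transport (21.9 ± 5.69 against 33.9 ± 4.95, 0.04). It also named Rab2a, of transport from the endoplasmic reticulum (42.8 ± 3.71 against 54.1 ± 3.47, 0.0388), and Selenbp1, with 61.1% of its words shared (51 ± 6.81 against 67.1 ± 5.47, 0.0413). All 5 of these calls ended without adult heart 1, adult heart 3 or old heart 1, 4 without old heart 3, and 1 to 3 without old heart 2 or 5 or adult heart 2 or 4, at adjusted p of 0.0516 to 0.13. These 5 genes, Procr and Rab5if were not called after the length correction, at adjusted p of 0.062 to 0.204. Nmrk2, a kinase of NAD synthesis picked after its values were seen, stood at 6.84 ± 5.01 against 2.33 ± 1.83 (adjusted p = 0.0612).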
